A study of Mus musculus with 46 samples.

Results

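RNA levels of 36 genes of glycolysis and pyruvate handling were followed while mouse embryonic fibroblasts (MEF) were driven toward induced pluripotent stem cells (iPSC) by either of 2 factor combinations. The genes were the listed symbols for the glucose transporter Slc2a1, the enzymes from hexokinase to pyruvate kinase, lactate dehydrogenase, the lactate transporters, and the carrier, dehydrogenase subunits and kinases that govern the entry of pyruvate into mitochondria. All 36 symbols were found among the 37108 genes of the gene table, and they owned 121 of the 106520 transcripts of the table for established lines. Each carried an expression value in FPKM, fragments corrected for gene length and library size, so levels of different genes are compared per length.

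Every time-course sample began as OG2 MEF, which carry an Oct4-GFP transgene, and received retroviral Oct4. The combinations differed in the second factor. Nanog-WT is the native transcription factor, whereas Nanog-BiD (NanogN70 in the labels) has an N-terminal piece of SS18, a BAF subunit, joined to it, which binds the remodeller BRG1. Cells were collected on 8 days, from D0 (after the infections) and D1 through D3, D5, D7, D8 and D10 to D12, in iCD3 medium at first and in N2B27 with 2i and LIF after D7. This gave 31 libraries, with 2 for each combination and day except Nanog-BiD at D8, which had 1. References were 2 libraries of untreated MEF, 12 of established iPSC (6 for each combination, labelled iPSC1 or iPSC2) and 1 of OG2 mouse embryonic stem cells (mES). For mES this number is too small for a test. The column names give the iPSC1 samples a later passage than the iPSC2 samples, so label and passage cannot be told apart. All cultures of a day were bulk mixtures of converted and unconverted cells, so that a higher level can come from more cells of a type or from more RNA in each cell, and these cannot be told apart. Nothing in the labels shows the replicates to be separate cultures, and p-values then measure only the spread between these samples.

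Glycolysis splits glucose into pyruvate in the cytosol and yields ATP without oxygen. Pyruvate is then either reduced to lactate and exported, or carried into mitochondria, where pyruvate dehydrogenase opens the way to the tricarboxylic acid cycle. Pluripotent stem cells in culture are known for rapid glycolysis and lactate release, and a move toward glycolysis is a known feature of reprogramming, although an RNA level is not a flux.

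Total FPKM ran from 370030 to 462190 per time-course library, and 12442 to 14431 genes reached 1 FPKM. Sequencing depth relative to the median library, read from the spacing of low values, was 0.874 to 1.10 in the 20 libraries of D0 to D7 and 0.807 to 1.02 in the 5 Nanog-BiD libraries of D8 to D12, but 1.85 to 3.17 in the 6 libraries that Nanog-WT has over those days. From D8 on, depth and combination cannot be told apart. The cell types also moved apart. The summed level of 10 fibroblast markers (Col1a1, Thy1, Pdgfra and others) was 2322 to 2616 FPKM at D0, 871 to 1085 at D7 and 304 to 447 at D12 with Nanog-BiD, against 2304 to 2828, 1619 to 1669 and 2947 to 3443 with Nanog-WT, and 12.0 in mES. The sum of 10 pluripotency markers (Zfp42, Esrrb, Sox2 and others) was 103 to 111 FPKM at D7 and 1323 to 2368 at D12 with Nanog-BiD, against 2.84 to 3.56 and 166 to 240 with Nanog-WT, and 3717 in mES. At D7, 9 of the 10 pluripotency markers were higher and 3 of the 10 fibroblast markers lower with Nanog-BiD, and at D12 all 10 were higher and 9 lower. No member of either list was at 0 in all libraries of D12. Some neural markers differed too. Of 6, 2 were higher and none lower with Nanog-BiD at each of D3, D7 and D12, where 3.7%, 10.4% and 23.4% of all genes tested differed. Only 3 of the 6 reached a mean of 1 FPKM with Nanog-BiD at D3 and D7, so few genes carry the sum there. The sum of the 6 was 374 to 510 FPKM at D3, 246 to 261 at D7 and 465 to 636 at D12 with Nanog-BiD. With Nanog-WT it was 60.4 to 76.4, 52.2 to 61.8 and 316 to 340, and mES had 74.3. These shifts run alongside every difference between the combinations given here, and their part in it was not tested.

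The genes of glycolysis took up a larger share of the Nanog-BiD than of the Nanog-WT libraries from D5 on. Their summed FPKM was 0.579% ± 0.0116 of the library total at D0 (SD, n = 2 here and below), 0.653% ± 0.0029 at D1, 0.549% ± 0.0969 at D3, 0.738% ± 0.0625 at D5, 0.931% ± 0.0943 at D7, 1.08% in the single D8 library, 1.73% ± 0.175 at D10 and 1.42% ± 0.0128 at D12. With Nanog-WT the share was 0.677% ± 0.0723 at D0, 0.666% ± 0.0016 at D1, 0.507% ± 0.0274 at D3, 0.489% ± 0.0415 at D5, 0.488% ± 0.0507 at D7, 0.468% ± 0.0153 at D8, 0.473% ± 0.0335 at D10 and 0.528% ± 0.0787 at D12. At D0 both Nanog-BiD libraries (0.587% and 0.571%) lay below both Nanog-WT libraries (0.728% and 0.626%), and by less at D1. The groups overlapped at D3. From D5 on each Nanog-BiD library lay above both Nanog-WT libraries of its day. MEF stood at 0.619% and 0.977% and mES at 1.48%. Without Gapdh, Eno1, Aldoa, Pkm and Ldha, but with the also abundant Pgk1 and Pgam1, the share was 0.694% at D12 with Nanog-BiD and 0.277% with Nanog-WT, against 0.277% and 0.317% at D0.

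**Figure D1:**
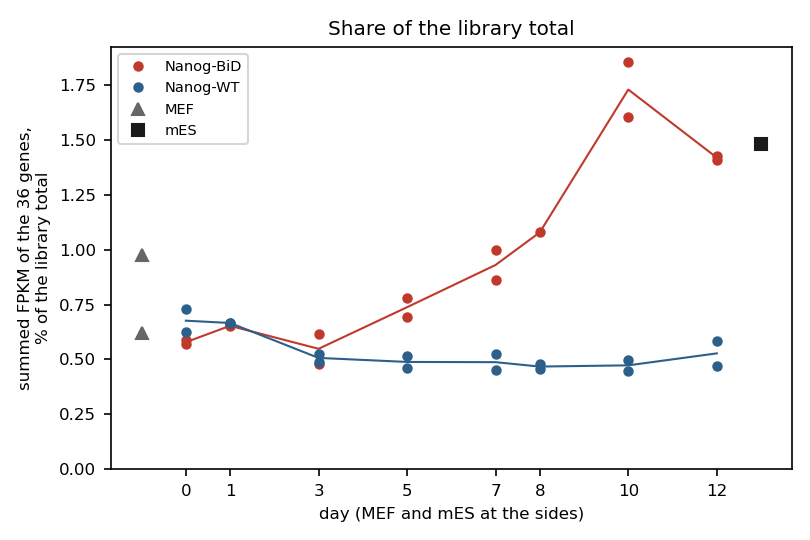
Summed FPKM of the 36 genes as a percentage of the library total (y axis) by day (x axis). Points are libraries and lines join the group means of Nanog-BiD (red) and Nanog-WT (blue), with MEF (grey triangles) and mES (black square) at the sides; the Nanog-BiD mean goes from 0.549% at D3 to 1.73% at D10 while the Nanog-WT mean stays between 0.468% and 0.677%.

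Gene by gene, the combinations were compared at each day with limma on log2(FPKM + 1), and a gene was called at an adjusted p under 0.05 and a difference of at least 1 on the log2 scale, which is 2-fold and understates the change of low genes. All 36 genes passed the filter on low values and were among the 16842 genes tested. At D0, D1 and D3 none of the 36 was called, where the share called among all genes tested was 0.76%, 1.33% and 3.7%, and 13, 4 and 9 of the 36 had an unadjusted limma p under 0.05. At D5, 3 were higher with Nanog-BiD (all genes 6.48% in either direction, 3.2% higher), namely Pfkl, Tpi1 and Slc16a3. At D7, 13 were higher and none lower (all genes 10.4% in either direction, 5.79% higher). At D10, 18 were higher and Bpgm was lower (all genes 27.8%, 15.4% higher). At D12, 21 were higher and none lower (all genes 23.4%, 13.5% higher). The median log2 difference of the 36 genes was -0.18 at D0, -0.02 at D1, 0.19 at D3, 0.39 at D5, 0.47 at D7, 1.04 at D10 and 1.22 at D12, and that of all genes tested was 0.01, 0.02, 0.04, 0.08, 0.08, 0.10 and 0.17. With no fold limit, 1 of the 36 passed at D1, 6 at D3 and 11 at D5, where all genes gave 3.27%, 10.1% and 16.4%.

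The calls at D12 were counted by step, against 23.4% of all genes tested called in either direction and 13.5% higher. At D12 they took in 3 of 4 genes of glucose uptake and the hexose steps, 3 of 3 phosphofructokinases, 5 of 5 genes from aldolase to phosphoglycerate kinase, 3 of 7 from the mutases to pyruvate kinase, and 4 of 4 genes of lactate formation and transport. Among the regulators they took in 1 of 4 Pfkfb genes and 2 of 4 pyruvate dehydrogenase kinases, and among the genes of pyruvate import and oxidation 0 of 5 by limma. For so few genes, 1 of 4 and 0 of 5 are not far from the share over all genes. The 15 genes not called at D12 were Hk1, Pgam2, Bpgm, Eno2, Eno3, Pdk2, Pdk3, Pdha1, Pdhb, Dlat, Mpc1, Mpc2, Pfkfb2, Pfkfb3 and Pfkfb4. Each of the 21 calls at D12 held when any library was left out in turn, as did 18 of 19 at D10, 8 of 13 at D7 and 1 of 3 at D5. For each day, only the 4 libraries of the compared groups were left out in turn. With quantile normalization 19 genes were higher and 1 lower at D12, where Ldha and Pgam1 fell under the fold limit. Sequence limits some levels. Another annotated gene with a match of at least 95% identity exists for 12 of the 36 genes. Overlap with another gene of the table was found for 13, in 11 cases with one that exceeded 1 FPKM.

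**Figure D2:**
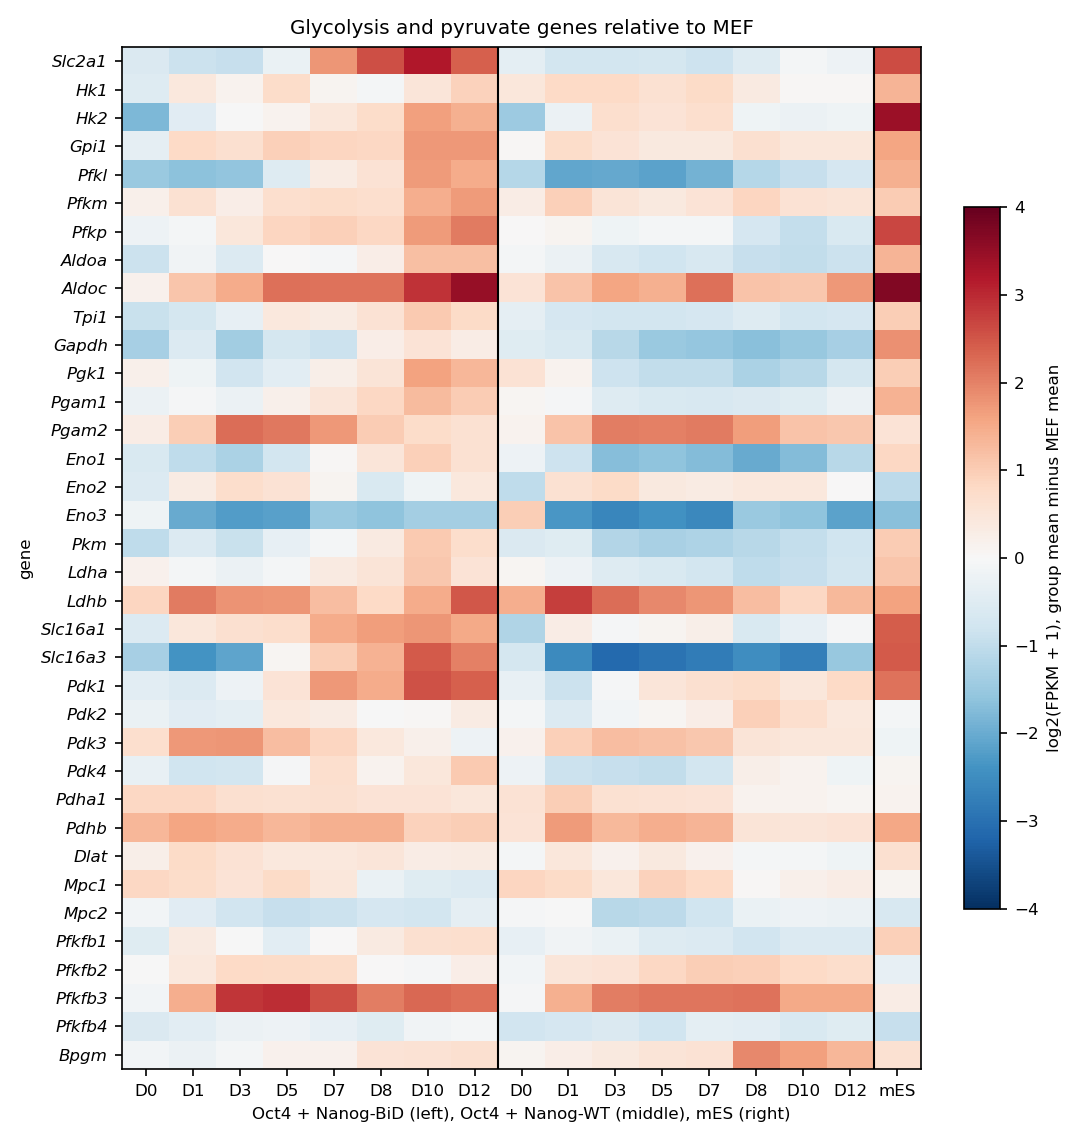
Mean log2(FPKM + 1) of each of the 36 genes (rows) at each day, minus the MEF mean, with red above and blue below MEF. Columns are Nanog-BiD D0 to D12, Nanog-WT D0 to D12 and mES; Slc2a1, Pfkl and Slc16a3 are above MEF in the Nanog-BiD columns from D7 on and below MEF in every Nanog-WT column, whereas Pfkm is above MEF in both.

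The DNA in front of 4 of these genes is shown because many members were higher together at D12 and because ACGTG is a core recognized by hypoxia-inducible factors, known regulators of glycolysis. The genes are those called at D7, D10 and D12 that have a single start site in the RefSeq promoter table (GRCm38.p6) which is also the outer end of the annotated gene, and hold ACGTG, read on either strand, in the 250 bases before it. Slc16a3, whose gene model begins before the start in that table, and Ldha and Pkm, each before 1 of 2 start sites, also hold it and are not shown. Each line runs 5′ to 3′ along the gene and ends at the base before the start, with ACGTG or its reverse complement CACGT in capitals.
Slc2a1 (chr4:119108495-119108744, + strand): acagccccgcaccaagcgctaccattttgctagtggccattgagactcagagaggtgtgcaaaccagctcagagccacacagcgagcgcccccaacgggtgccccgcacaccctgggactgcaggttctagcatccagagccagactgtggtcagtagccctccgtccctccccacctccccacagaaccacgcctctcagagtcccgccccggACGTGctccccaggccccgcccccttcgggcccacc
Slc16a1 (chr3:104638414-104638663, + strand): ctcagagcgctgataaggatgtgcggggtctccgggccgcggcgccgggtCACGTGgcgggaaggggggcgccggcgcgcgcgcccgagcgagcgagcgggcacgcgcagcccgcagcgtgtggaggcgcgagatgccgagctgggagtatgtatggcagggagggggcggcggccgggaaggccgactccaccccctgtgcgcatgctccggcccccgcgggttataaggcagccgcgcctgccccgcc
Pgk1 (chrX:106186850-106187099, + strand): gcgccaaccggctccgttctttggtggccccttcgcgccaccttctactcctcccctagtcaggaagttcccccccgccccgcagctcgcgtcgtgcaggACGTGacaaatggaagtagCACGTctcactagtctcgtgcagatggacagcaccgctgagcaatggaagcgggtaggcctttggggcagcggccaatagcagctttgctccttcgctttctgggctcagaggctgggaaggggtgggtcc
Pgam1 (chr19:41911621-41911870, + strand): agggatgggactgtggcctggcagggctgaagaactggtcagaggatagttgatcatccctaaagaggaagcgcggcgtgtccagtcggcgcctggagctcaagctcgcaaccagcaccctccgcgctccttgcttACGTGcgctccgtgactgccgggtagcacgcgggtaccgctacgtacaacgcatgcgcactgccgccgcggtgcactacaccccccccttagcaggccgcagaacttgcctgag
In Slc2a1 the match began 36 bases before the start, in Pgk1 the matches began 150 and 131 bases before it, and in Pgam1 the match began at 114 bases. The capitals of Slc16a1 spell CACGTG, the E-box recognized by Myc and related factors, which holds ACGTG on both strands and begins 200 bases before the start. GC content of these windows was 66.4% for Slc2a1, 76.4% for Slc16a1, 62.8% for Pgk1 and 64.0% for Pgam1. Over all 36 genes, 19 of 56 start sites held ACGTG (33.9%), against 16.6% of the 32851 start sites in the table. By gene, 15 of 36 had it before at least 1 start site (41.7%), against 18.5% of 27025 genes. The related core GCGTG was found before 51.8% of the member start sites and 28.2% of all, and CACGTG before 10.7% and 6.02%. Pfkl, Pfkp, Eno1 and Pdk1, which were called at the same days, had no ACGTG in these windows, but each had GCGTG before at least 1 start site. A match describes the letters only, and base composition was not taken into account.

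Positions in brackets are those of the gene in mm10 (GRCm38), all of them protein-coding. The glucose transporter gene differed in RNA level from D7 on. Slc2a1 encodes GLUT1, the main glucose importer of many cultured cells. Slc2a1 (chr4:119108745-119137330) with Nanog-BiD was at 26.5 and 28.4 FPKM (D0), 24.0 and 21.0 (D1), 23.4 and 19.1 (D3), 30.7 and 37.1 (D5), 131 and 153 (D7), 254 (D8), 399 and 373 (D10) and 232 and 211 (D12). Slc2a1 with Nanog-WT was at 32.2 and 30.4 FPKM (D0), 24.2 and 24.2 (D1), 25.3 and 23.5 (D3), 25.6 and 23.9 (D5), 25.7 and 20.2 (D7), 27.9 and 29.8 (D8), 29.7 and 51.0 (D10) and 42.9 and 29.9 (D12). Until D3 each Nanog-BiD library was below both Nanog-WT libraries of the day, at D5 both were above, and from D7 on each Nanog-BiD library was above every Nanog-WT library of the whole course. The log2 difference was 0.43 (SE 0.20, adjusted p = 0.15) at D5, 2.58 (SE 0.20, adjusted p = 1.2e-08) at D7, 3.28 (SE 0.20, adjusted p = 1.6e-10) at D10 and 2.59 (SE 0.20, adjusted p = 3.4e-09) at D12, the last being 6.04-fold on the FPKM + 1 scale. MEF had 31.2 and 54.4 FPKM and mES 254.4, just above the 253.8 FPKM of the single D8 library of Nanog-BiD.

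Hexokinase traps glucose in the cell as its phosphate, and of its genes here Hk2 was called at D10 and D12 and Hk1 on no day. Hk2 (chr6:82725025-82774454) with Nanog-BiD was at 2.98 and 2.71 FPKM (D0), 8.59 and 9.06 (D1), 14.3 and 10.7 (D3), 12.5 and 15.6 (D5), 21.3 and 14.4 (D7), 21.3 (D8), 46.5 and 36.8 (D10) and 35.3 and 34.4 (D12). Hk2 with Nanog-WT was at 3.64 and 4.18 FPKM (D0), 10.6 and 10.3 (D1), 20.7 and 19.97 (D3), 17.7 and 19.4 (D5), 23.2 and 17.7 (D7), 12.6 and 9.40 (D8), 10.2 and 10.8 (D10) and 11.9 and 10.3 (D12). The gene rose in both combinations up to D7 (changes given below), after which Nanog-BiD libraries were higher still, at 46.5 and 36.8 FPKM at D10, while Nanog-WT libraries were at 12.6 and 9.40 by D8. At D7 the difference was -0.19 (SE 0.18, adjusted p = 0.49), against 1.88 (SE 0.18, adjusted p = 7.5e-08) at D10 and 1.57 (SE 0.18, adjusted p = 8.6e-07) at D12. Hk2 in mES was 142 FPKM, above every time-course library. Hk1, the widely expressed hexokinase, ran from 9.37 to 27.7 FPKM with Nanog-BiD and from 13.1 to 28.9 with Nanog-WT and was not called at any day. Gpi1, which turns glucose phosphate into fructose phosphate, had 207 and 145 FPKM at D7 and 310.4 and 330.3 at D12 with Nanog-BiD, against 131 and 116 at D7 and 146 and 116 at D12 with Nanog-WT, and was called at D10 (1.27) and D12 (1.29).

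All 3 phosphofructokinase genes, which serve the committed step of the pathway, were higher at D12 (all genes 13.5% higher), in different time patterns. Pfkl (chr10:77986947-78009807), the liver-type subunit, with Nanog-BiD was at 8.49 and 7.603 FPKM (D0), 7.66 and 6.41 (D1), 11.2 and 4.73 (D3), 12.4 and 22.1 (D5), 33.5 and 27.7 (D7), 36.8 (D8), 91.2 and 72.4 (D10) and 70.6 and 68.8 (D12). Pfkl with Nanog-WT was at 13.2 and 8.16 FPKM (D0), 5.17 and 4.70 (D1), 5.06 and 5.22 (D3), 4.23 and 5.33 (D5), 7.53 and 4.43 (D7), 10.2 and 10.7 (D8), 11.9 and 12.4 (D10) and 20.7 and 10.5 (D12). The Nanog-WT libraries were at or below 7.53 FPKM from D1 to D7, whereas the Nanog-BiD libraries were above all of these from D5. The difference was 1.62 (SE 0.33, adjusted p = 0.0016) at D5, 2.21 (SE 0.33, adjusted p = 4.1e-05) at D7, 2.64 (SE 0.33, adjusted p = 1.3e-06) at D10 and 2.16 (SE 0.33, adjusted p = 1.8e-05) at D12. The D5 call was lost without Nanog-BiD replicate 2 of that day, at 1.22 (adjusted p = 0.051). Pfkl reached 66.2 FPKM in mES and 18.4 and 31.6 in MEF.

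Pfkp, the platelet-type subunit, showed the largest difference of the 3 at D12. Pfkp (chr13:6579874-6649060) with Nanog-BiD was at 3.42 and 3.96 FPKM (D0), 4.10 and 4.03 (D1), 6.38 and 6.25 (D3), 8.38 and 8.98 (D5), 9.87 and 9.06 (D7), 8.56 (D8), 20.1 and 13.6 (D10) and 23.4 and 19.995 (D12). Pfkp with Nanog-WT was at 4.24 and 4.69 FPKM (D0), 4.79 and 4.87 (D1), 3.53 and 4.04 (D3), 4.33 and 3.87 (D5), 3.97 and 4.16 (D7), 2.57 and 2.23 (D8), 1.85 and 1.69 (D10) and 2.26 and 2.87 (D12). After D7 the lowest Nanog-WT values were those of D10, while the highest Nanog-BiD values were those of D10 and D12, and from D3 on the groups did not overlap. The difference was 0.93 (SE 0.15, adjusted p = 0.0002) at D5, 1.05 (SE 0.15, adjusted p = 3e-05) at D7, 2.67 (SE 0.15, adjusted p = 6.6e-11) at D10 and 2.67 (SE 0.15, adjusted p = 6.1e-11) at D12. Without Nanog-BiD replicate 1 of D7 the D7 value was 0.99 (adjusted p = 0.00083), just under the fold limit. Pfkm, the muscle-type subunit, had 24.998 and 23.0 FPKM with Nanog-BiD and 11.4 and 8.69 with Nanog-WT at D12, a difference of 1.19 (SE 0.21, adjusted p = 0.00012), and was not called earlier. In mES the 3 genes stood at 66.2 (Pfkl), 33.5 (Pfkp) and 14.7 FPKM (Pfkm). Pfkp and Pfkm overlap genes on the other strand, Pitrm1 and Senp1, and the strand setting of the quantification is not given in the sources used here, so reads of these neighbours (up to 37.1 FPKM for Pitrm1 and 15.2 for Senp1) cannot be told apart from theirs.

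**Figure D3:**
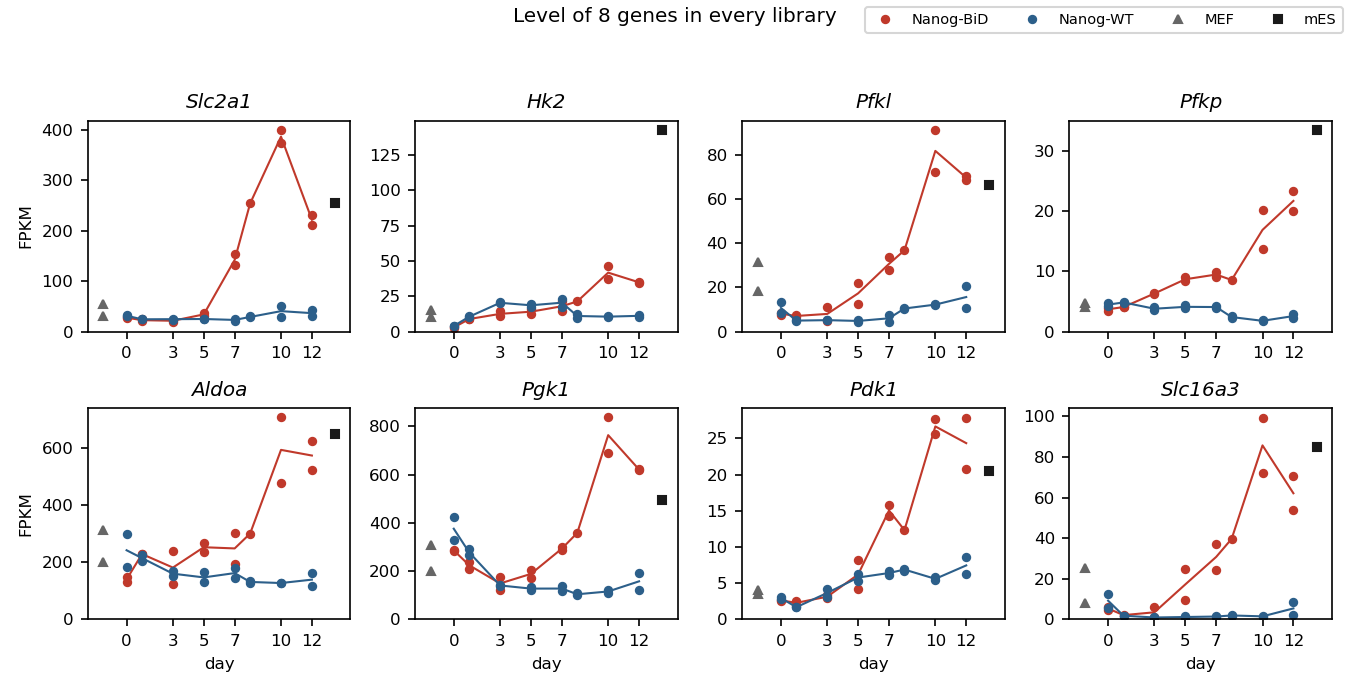
FPKM (y axis, linear, own scale per panel) of 8 genes by day (x axis) with Nanog-BiD (red) and Nanog-WT (blue), each point a library and each line the group mean, with MEF as grey triangles at the left and mES as a black square at the right. The Nanog-BiD points lie above the Nanog-WT points of the same day from D1 on for Slc16a3 (narrowly at first) and from D3 on for Pfkp. They do so from D5 on for Slc2a1, Pfkl, Aldoa and Pgk1 and from D7 on for Pdk1. For Hk2 they do so from D8 on, where Nanog-BiD reaches 46.5 FPKM and Nanog-WT 10.8 at D10.

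Phosphofructokinase is tuned by the Pfkfb enzymes, which make and remove its activating sugar bisphosphate. Pfkfb3, the form with the strongest synthetic activity, was the most abundant of the 4 and rose in both combinations, from 3.42 and 3.99 FPKM at D0 to 29.1 and 30.6 at D7 with Nanog-BiD and from 3.69 and 4.18 to 21.6 and 21.3 with Nanog-WT. Its difference between the combinations stayed under the fold limit at each tested day, the highest being 0.84 (SE 0.22, adjusted p = 0.02) at D3. Pfkfb1 was low, at 3.10 and 2.16 FPKM with Nanog-BiD and 0.384 and 0.710 with Nanog-WT at D12, and was called at D10 (1.21) and D12 (1.23). The D10 call was lost without Nanog-BiD replicate 1, at 0.90 (adjusted p = 0.0026), and Pfkfb1 overlaps Apex2 on the other strand, which reached 7.38 FPKM. Pfkfb2 ran from 1.996 to 5.04 FPKM with Nanog-BiD and 1.31 to 5.72 with Nanog-WT, and Pfkfb4 from 0.675 to 1.85 and 0.448 to 1.22, with no call between the combinations.

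The next step, in which aldolase splits the sugar into a pair of trioses, gave a late and large difference. Aldoa (chr7:126795234-126800994) with Nanog-BiD was at 149 and 129 FPKM (D0), 228 and 227 (D1), 238 and 122 (D3), 236 and 267 (D5), 303 and 192 (D7), 299 (D8), 709 and 476 (D10) and 624 and 521 (D12). Aldoa with Nanog-WT was at 298 and 183 FPKM (D0), 224 and 202 (D1), 151 and 167 (D3), 128 and 164 (D5), 179 and 143 (D7), 128 and 132 (D8), 125 and 128 (D10) and 159.7 and 116 (D12). The Nanog-BiD replicates were wide apart at D3 and D7, and from D5 on both were above both Nanog-WT libraries of the day. The difference was 0.59 (SE 0.28, adjusted p = 0.14) at D7, 2.19 (SE 0.28, adjusted p = 2.4e-06) at D10 and 2.06 (SE 0.28, adjusted p = 6.4e-06) at D12. Aldoc (chr11:78323073-78327781), a second aldolase known from brain, with Nanog-BiD was at 1.22 and 1.02 FPKM (D0), 3.26 and 2.87 (D1), 7.01 and 2.43 (D3), 6.42 and 9.22 (D5), 9.76 and 5.65 (D7), 7.44 (D8), 18.5 and 9.26 (D10) and 21.8 and 18.8 (D12). Aldoc with Nanog-WT was at 1.86 and 1.70 FPKM (D0), 2.81 and 3.54 (D1), 3.604 and 5.96 (D3), 3.93 and 4.14 (D5), 9.82 and 5.88 (D7), 2.92 and 3.40 (D8), 3.01 and 2.94 (D10) and 5.77 and 4.71 (D12). Both combinations held a like range at D7, and on both D10 and D12 all Nanog-BiD libraries exceeded all Nanog-WT libraries, with differences of -0.03 (SE 0.34, adjusted p = 0.98) at D7, 1.83 (SE 0.34, adjusted p = 0.00014) at D10 and 1.77 (SE 0.34, adjusted p = 0.00023) at D12. In MEF Aldoc was at 1.39 and 0.490 FPKM and in mES at 23.5. Tpi1, which interconverts the trioses, was higher with Nanog-BiD at D5 (1.16), D10 (1.77) and D12 (1.42) and at D7 stood at 0.99 (SE 0.26, adjusted p = 0.0073), short of the fold limit. The D5 call of Tpi1 was lost without Nanog-WT replicate 1, at 1.01 (adjusted p = 0.062).

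Gapdh, the triose dehydrogenase that is often taken as a constant reference gene, was not constant here. Gapdh (chr6:125161852-125166467) with Nanog-BiD was at 37.0 and 37.0 FPKM (D0), 74.3 and 55.3 (D1), 48.7 and 25.1 (D3), 60.0 and 53.7 (D5), 68.0 and 39.3 (D7), 113 (D8), 140.2 and 134 (D10) and 144 and 94.996 (D12). Gapdh with Nanog-WT was at 84.6 and 52.4 FPKM (D0), 62.8 and 58.6 (D1), 39.7 and 45.7 (D3), 27.1 and 40.5 (D5), 38.6 and 25.9 (D7), 29.9 and 27.3 (D8), 26.9 and 37.8 (D10) and 46.1 and 29.5 (D12). The Nanog-WT libraries were the higher ones at D0 and the Nanog-BiD libraries from D5 on. The difference was -0.83 (SE 0.33, adjusted p = 0.21) at D0, 0.69 (SE 0.33, adjusted p = 0.12) at D7, 2.07 (SE 0.33, adjusted p = 2.2e-05) at D10 and 1.64 (SE 0.33, adjusted p = 0.00033) at D12. These levels are uncertain, because 93 other annotated genes hold a near-identical match to Gapdh (at least 95% identity over 200 bases). Most are not in the gene table. The 6 that are, among them the receptor gene Vmn2r60, summed to 1102 to 1256 FPKM at D12 with Nanog-BiD and 384 to 414 with Nanog-WT. The sum of these 6 matching genes exceeded Gapdh itself in every library, and at D12 it was in the same order. In MEF the gene table gave 84.4 and 104 FPKM for Gapdh, whereas the same samples had 16.6 and 39.5 in the table of transcripts.

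Pgk1 carries out the first ATP-forming reaction. Pgk1 (chrX:106187100-106203699) with Nanog-BiD was at 282 and 288 FPKM (D0), 209 and 238 (D1), 176 and 120.3 (D3), 172 and 203 (D5), 299.6 and 285 (D7), 358 (D8), 839 and 688 (D10) and 622 and 619.9 (D12). Pgk1 with Nanog-WT was at 423 and 327 FPKM (D0), 289 and 265 (D1), 137 and 142 (D3), 119 and 134 (D5), 137 and 116 (D7), 99.6 and 106 (D8), 107 and 122 (D10) and 191 and 122 (D12). In both combinations D3 was lower than D0 in each library, after which Nanog-WT libraries stayed at or below 191 FPKM and Nanog-BiD libraries reached 839 and 688 at D10, above the 494 FPKM of mES. The difference was 0.56 (SE 0.20, adjusted p = 0.059) at D5, 1.204 (SE 0.20, adjusted p = 0.00012) at D7, 2.72 (SE 0.20, adjusted p = 1.8e-09) at D10 and 2.01 (SE 0.20, adjusted p = 8.9e-08) at D12.

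The mutase and enolase steps split by isoform. Pgam1, the general phosphoglycerate mutase, had 398 and 394 FPKM at D7 and 573 and 572 at D12 with Nanog-BiD against 188 and 172 at D7 and 267 and 214 at D12 with Nanog-WT, and was called at D7 (1.14), D10 (1.77) and D12 (1.26). Pgam2, the muscle form, was at 3.03 and 2.89 FPKM with Nanog-BiD and 5.06 and 3.86 with Nanog-WT at D12 and was not called at any day. Bpgm, which makes the bisphosphoglycerate known from red blood cells, was the only one of the 36 genes called lower at any day with FPKM as deposited. Without the fold limit, Pdk2, Mpc1, Pfkfb2 and Bpgm passed as lower at D10 and Pgam2, Pdk3, Mpc1 and Bpgm at D12. Bpgm was at 14.9 and 12.8 FPKM at D7, 43.2 and 31.3 at D8, 29.7 and 29.5 at D10 and 25.7 and 22.3 at D12 with Nanog-WT, while Nanog-BiD had 11.03 and 9.49 at D7, 13.7 at D8, 14.2 and 13.6 at D10 and 13.6 and 15.53 at D12. It was lower with Nanog-BiD at D10, by a difference of -1.04 (SE 0.25, adjusted p = 0.0013), and at D12 the difference was -0.68 (SE 0.25, adjusted p = 0.026). Erythroid markers summed to 0.513 to 0.727 FPKM at D12 with Nanog-BiD and 0.225 to 0.356 with Nanog-WT over 6 genes, of which none reached 1 FPKM.

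Eno1 is the widely expressed enolase. Eno1 (chr4:150236708-150248879) with Nanog-BiD was at 343 and 344 FPKM (D0), 219.9 and 302 (D1), 241 and 193 (D3), 301 and 322 (D5), 522 and 564 (D7), 735 (D8), 1106 and 925 (D10) and 817 and 782 (D12). Eno1 with Nanog-WT was at 468 and 434 FPKM (D0), 296 and 294 (D1), 165 and 153 (D3), 166 and 172 (D5), 159 and 154 (D7), 140.2 and 118 (D8), 132 and 186 (D10) and 245 and 236 (D12). The Nanog-WT libraries were higher at D0 and were at 165 and 153 FPKM by D3, from where they stayed below the Nanog-BiD libraries of the same day. The difference was -0.39 (SE 0.17, adjusted p = 0.26) at D0, 0.88 (SE 0.17, adjusted p = 0.001) at D5, 1.79 (SE 0.17, adjusted p = 1.9e-07) at D7, 2.69 (SE 0.17, adjusted p = 2.7e-10) at D10 and 1.73 (SE 0.17, adjusted p = 8.5e-08) at D12. Its near-identical copy Eno1b showed the same order, at 205 and 228 FPKM with Nanog-BiD and 60.5 and 67.6 with Nanog-WT at D12. Eno2, the neuronal enolase, was at 7.89 and 8.11 FPKM with Nanog-BiD and 6.07 and 5.30 with Nanog-WT at D12 and was not called between the combinations. Eno3, the muscle enolase, was at 4.79 and 11.6 FPKM at D0 and 1.40 and 1.27 at D1 with Nanog-BiD, and at 25.5 and 12.5 and then 1.05 and 0.722 with Nanog-WT. Eno3 was called at D7 (1.09, SE 0.30, adjusted p = 0.0098), at levels of 2.44 and 2.30 against 0.612 and 0.566 FPKM, and the call was lost without Nanog-WT replicate 2, at 1.06 (adjusted p = 0.052).

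Pkm, pyruvate kinase, closes glycolysis. Its level was 269.8 and 263 FPKM (D0), 640.3 and 408 (D7), 1213 and 997 (D10) and 904 and 842 (D12) with Nanog-BiD, and 426 and 310.0 (D0), 264 and 195 (D7), 256 and 303 (D10) and 386 and 251 (D12) with Nanog-WT. The groups were apart from D5 on, at 398 and 457 against 193 and 241 FPKM on that day, with differences of 0.98 (SE 0.25, adjusted p = 0.011) at D5, 1.17 (SE 0.25, adjusted p = 0.0017) at D7, 1.98 (SE 0.25, adjusted p = 2.1e-06) at D10 and 1.49 (SE 0.25, adjusted p = 7.3e-05) at D12. The D7 value was 0.84 (adjusted p = 0.042) without Nanog-BiD replicate 1 and 0.95 (adjusted p = 0.035) without Nanog-WT replicate 2, both under the fold limit.

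Pkm yields the M1 or the M2 enzyme according to which of 2 mutually exclusive exons is spliced in, M2 being known from embryonic and dividing cells and M1 from muscle and brain. Both are exon 9 of 11 and 167 bases long, and are shown because they define the 2 isoforms. The exons come from RefSeq records placed on mm10, chromosome 9, plus strand. They share 103 identical bases (61.7%) when set side by side without gaps. The 2 records have 8 of their 11 exons in common, so they also differ outside exon 9.
Pkm M1 exon (chr9:59675029-59675195): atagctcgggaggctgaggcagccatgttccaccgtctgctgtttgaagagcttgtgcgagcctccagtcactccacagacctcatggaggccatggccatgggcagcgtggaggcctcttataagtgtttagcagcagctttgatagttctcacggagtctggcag
Pkm M2 exon (chr9:59675568-59675734): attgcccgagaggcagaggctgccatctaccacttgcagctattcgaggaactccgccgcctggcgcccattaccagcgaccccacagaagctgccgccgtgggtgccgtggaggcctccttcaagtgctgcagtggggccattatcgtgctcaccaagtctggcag
The transcript table, which covers only MEF, iPSC and mES, gave M2 a share of 77.2% and 78.3% of M1 plus M2 in MEF and 79.9% in mES. Over 6 iPSC samples each, the M2 share was 63.0% to 74.7% (median 72.8%) with Nanog-BiD and 73.8% to 80.8% (median 76.7%) with Nanog-WT. M2 was thus the more abundant form in every sample, MEF included. These shares are estimates of StringTie from short reads, and no time-course values by isoform were analysed here. Other Pkm transcripts are left out of them. These had 102 FPKM in MEF replicate 1 and 89.9 in Nanog-WT iPSC1 sample 1, and at most 0.604 in any other sample.

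All 4 genes of lactate formation and transport were higher with Nanog-BiD at D12 (all genes 13.5% higher). Ldha, the subunit that favours lactate production, had 509 and 545 FPKM at D7 and 614 and 589 at D12 with Nanog-BiD against 274 and 219.6 at D7 and 291 and 212 at D12 with Nanog-WT, differences of 1.10 (SE 0.19, adjusted p = 0.00018) and 1.27 (SE 0.19, adjusted p = 1.3e-05). Without Nanog-WT replicate 2 the D7 value was 0.94 (adjusted p = 0.0062), and with quantile normalization the D12 value was 0.99 (adjusted p = 3e-06), both under the fold limit. Ldhb, the subunit that favours lactate use, differed late, at 129.9 and 100.4 FPKM against 43.7 and 54.1 at D12 (1.21, SE 0.19, adjusted p = 3e-05), with -0.53 at D7 and 0.66 at D10.

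Slc16a3 encodes MCT4, the lactate exporter of highly glycolytic cells, and had the largest difference of the 36 genes at D5, D7, D10 and D12. Slc16a3 (chr11:120948484-120959000) with Nanog-BiD was at 6.08 and 4.33 FPKM (D0), 2.15 and 1.75 (D1), 5.79 and 0.915 (D3), 9.59 and 24.6 (D5), 37.3 and 24.1 (D7), 39.6 (D8), 99.2 and 72.3 (D10) and 70.6 and 53.6 (D12). Slc16a3 with Nanog-WT was at 12.5 and 5.68 FPKM (D0), 1.59 and 1.74 (D1), 0.819 and 0.748 (D3), 0.680 and 1.37 (D5), 1.59 and 0.918 (D7), 1.98 and 1.61 (D8), 0.964 and 1.73 (D10) and 8.35 and 2.18 (D12). Both combinations were lower at D1 than at D0, and Nanog-WT stayed at or below 1.98 FPKM from D1 to D10 while Nanog-BiD libraries were at 9.59 or above from D5. The D3 and D5 values of Nanog-BiD were far apart between replicates. The difference was 1.02 (SE 0.52, adjusted p = 0.26) at D3, 3.05 (SE 0.52, adjusted p = 0.00033) at D5, 3.797 (SE 0.52, adjusted p = 1.8e-05) at D7, 5.21 (SE 0.52, adjusted p = 9.5e-08) at D10 and 3.52 (SE 0.52, adjusted p = 1.4e-05) at D12, which is 11.5-fold on the FPKM + 1 scale. MEF were at 8.17 and 25.3 FPKM and mES at 84.8.

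Slc16a1 encodes MCT1, which moves lactate and pyruvate in either direction. Slc16a1 (chr3:104638664-104658462) with Nanog-BiD was at 8.002 and 8.54 FPKM (D0), 18.8 and 16.1 (D1), 19.3 and 20.6 (D3), 20.6 and 21.3 (D5), 29.6 and 45.5 (D7), 41.9 (D8), 46.0 and 43.5 (D10) and 42.5 and 34.3 (D12). Slc16a1 with Nanog-WT was at 5.08 and 4.74 FPKM (D0), 16.04 and 15.54 (D1), 12.7 and 11.6 (D3), 12.7 and 14.53 (D5), 14.2 and 15.4 (D7), 7.85 and 7.79 (D8), 7.97 and 12.2 (D10) and 12.9996 and 11.5 (D12). It rose in both combinations from D0 to D7, by 2.02 (Nanog-BiD) and 1.42 (Nanog-WT). At every day both Nanog-BiD libraries exceeded both Nanog-WT libraries. The difference was 0.67 (SE 0.18, adjusted p = 0.018) at D3, 1.25 (SE 0.18, adjusted p = 2.5e-05) at D7, 2.07 (SE 0.18, adjusted p = 1.5e-08) at D10 and 1.57 (SE 0.18, adjusted p = 5.5e-07) at D12, and at D7 it was 0.95 (adjusted p = 0.0013) without Nanog-BiD replicate 2.

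Pyruvate dehydrogenase kinases shut the mitochondrial route by phosphorylating the dehydrogenase, and 2 of the 4 genes were called at D12 (all genes 23.4%). Pdk1 (chr2:71873215-71903858), a known hypoxia-inducible gene, with Nanog-BiD was at 2.62 and 2.56 FPKM (D0), 1.996 and 2.50 (D1), 3.29 and 2.91 (D3), 4.18 and 8.16 (D5), 15.7 and 14.3 (D7), 12.3 (D8), 25.6 and 27.7 (D10) and 20.8 and 27.9 (D12). Pdk1 with Nanog-WT was at 3.05 and 2.78 FPKM (D0), 1.65 and 1.64 (D1), 4.21 and 3.04 (D3), 6.27 and 5.23 (D5), 6.61 and 6.14 (D7), 6.99 and 6.71 (D8), 5.34 and 5.79 (D10) and 8.61 and 6.24 (D12). Both combinations were higher at D7 than at D0, with a change that passed the test with Nanog-BiD (2.16) and stayed under the fold limit with Nanog-WT (0.91), and the groups were apart from D7. The difference was 0.03 (SE 0.21, adjusted p = 0.95) at D5, 1.12 (SE 0.21, adjusted p = 0.00042) at D7, 2.07 (SE 0.21, adjusted p = 1e-07) at D10 and 1.59 (SE 0.21, adjusted p = 3.4e-06) at D12. Pdk4 was low, at 3.26 and 3.21 FPKM at D7 and 4.57 and 4.30 at D12 with Nanog-BiD against 0.695 and 0.525 at D7 and 1.21 and 1.53 at D12 with Nanog-WT, and was called at D7 (1.40, SE 0.24, adjusted p = 0.00021) and D12 (1.199, SE 0.24, adjusted p = 0.00039) but had 0.31 (SE 0.24, adjusted p = 0.29) at D10. Pdk3, the most abundant kinase gene at D0, was at 15.2 and 18.7 FPKM with Nanog-BiD and 24.2 and 30.2 with Nanog-WT at D12 (-0.65, SE 0.14, adjusted p = 0.0007). Pdk2 ran from 2.18 to 5.10 FPKM with Nanog-BiD and 1.92 to 8.13 with Nanog-WT, and neither Pdk2 nor Pdk3 was called between the combinations.

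None of the 5 genes that bring pyruvate into mitochondria and oxidize it was called by limma at any day between the combinations. The share called over all genes ran from 0.76% at D0 to 27.8% at D10. Of the 5 genes, 3 had an unadjusted limma p under 0.05 at D12. Pdha1, a subunit of pyruvate dehydrogenase, was at 102 and 102 FPKM with Nanog-BiD and 74.5 and 85.3 with Nanog-WT at D12. Pdhb, its partner subunit, was at 63.5 and 42.1 FPKM against 35.1 and 41.6. Dlat, its acetyltransferase subunit, was at 23.0 and 23.9 against 17.3 and 15.4 FPKM. Differences at D12 were 0.35 (SE 0.10, adjusted p = 0.0085) for Pdha1, 0.43 (SE 0.23, adjusted p = 0.14) for Pdhb and 0.50 (SE 0.10, adjusted p = 0.00036) for Dlat, so that those of Pdha1 and Dlat passed the p threshold and not the fold limit. Mpc1 and Mpc2, which form the mitochondrial pyruvate carrier, were at 5.59 and 3.24 FPKM (Mpc1) and 18.0 and 21.0 (Mpc2) with Nanog-BiD, against 7.56 and 9.60 (Mpc1) and 24.9 and 18.2 (Mpc2) with Nanog-WT. Their differences were -0.85 (SE 0.21, adjusted p = 0.0021) for Mpc1 and -0.12 (SE 0.29, adjusted p = 0.75) for Mpc2. The Mpc1 value is uncertain for its overlap with a transcript on the other strand at up to 12.0 FPKM.

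**Figure D4:**
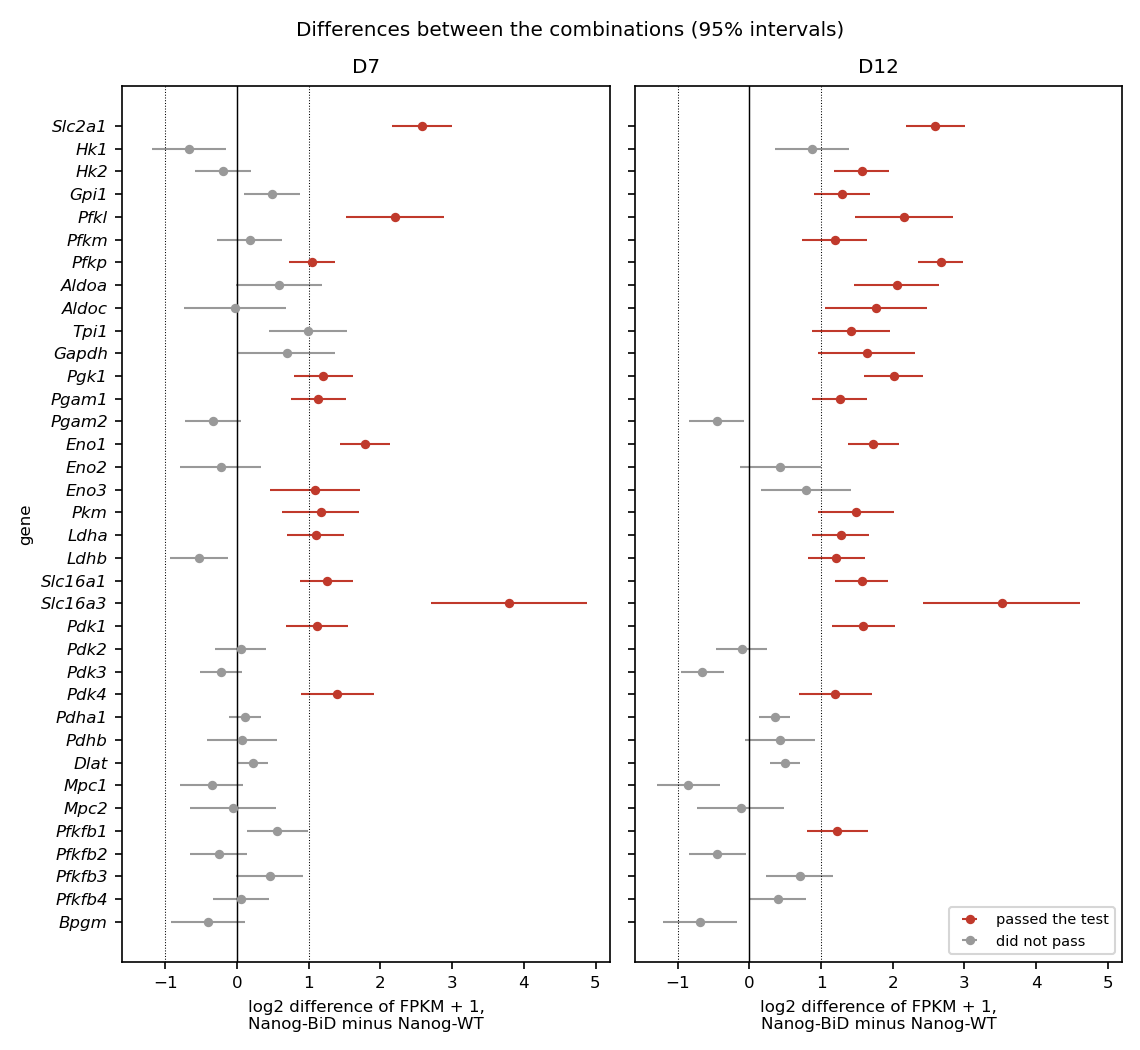
Log2 difference of FPKM + 1, Nanog-BiD minus Nanog-WT (x axis), of the 36 genes at D7 (left) and D12 (right), with 95% limma intervals. Red points passed the test (13 at D7, 21 at D12), grey points did not, and dotted lines mark the fold limit of 1 on either side of 0; Slc16a3 lies farthest right on both days and Mpc1 farthest left at D12.

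The paths themselves were compared over D0 to D7 and D7 to D12, the days before and after the change of medium. These comparisons share the D0, D7 and D12 libraries with those above and with each other. Along the Nanog-BiD path, 12 of the 36 genes rose and Eno3 fell from D0 to D7 (all genes 18.8% called), with a median of 0.65 against 0.24 for all genes. The fall of Eno3, the one lower call, was lost without Nanog-BiD replicate 2 of D0, at -0.78 (adjusted p = 0.051), and the call of Gpi1 without replicate 1 of D7, at 0.97 (adjusted p = 0.0012). The largest rises were those of Pfkfb3 (2.71), Slc2a1 (2.33), Slc16a3 (2.33), Hk2 (2.27) and Pdk1 (2.16). Along the Nanog-WT path, 7 genes rose (Hk2, Aldoc, Pgam2, Eno2, Slc16a1, Pfkfb2 and Pfkfb3) and 5 fell (Gapdh, Pgk1, Eno1, Eno3 and Slc16a3) over the same days (all genes 17.7%), with a median of 0.09 against 0.12. Slc16a3 fell by 2.09 on the log2 scale, a call that was lost without Nanog-WT replicate 1 of D0, at -1.58 (adjusted p = 0.059). Among the Nanog-WT calls, those of Gapdh, at -0.71 (adjusted p = 0.18), and Pfkfb2, at 0.71 (adjusted p = 0.0045), were lost without the same library. Eno2 was lost without replicate 2 of D0, at 0.77 (adjusted p = 0.014), and Gapdh also without replicate 2 of D7, at -0.77 (adjusted p = 0.16). Rescaled to TPM, the Nanog-WT split was 9 higher and 4 lower. Hk2 rose on both paths, by 2.27 (SE 0.18, adjusted p = 7.5e-09) and 2.11 (SE 0.18, adjusted p = 1.9e-08).

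The change from D0 to D7 differed between the paths for 15 of the 36 genes, each more positive with Nanog-BiD (all genes 10.1% called in either direction, 5.2% more positive), with a median difference of 0.56 against 0.07 for all genes. They were Slc2a1, Pfkl, Pfkp, Aldoa, Tpi1, Gapdh, Pgk1, Pgam1, Eno1, Eno3, Pkm, Ldha, Slc16a3, Pdk1 and Pdk4. For Slc16a3 the difference was 4.42 (SE 0.74, adjusted p = 0.00036), for Slc2a1 2.77 (SE 0.28, adjusted p = 1.8e-06), for Pfkl 2.54 (SE 0.46, adjusted p = 0.00076) and for Eno1 2.18 (SE 0.24, adjusted p = 4.2e-06). For Pgk1 the Nanog-BiD change was 0.03 and the Nanog-WT change -1.55. This contrast takes in the difference at D0, which was positive for only 10 of the 36 genes (median -0.18), with no call. Part of a value can therefore come from D0, and Aldoa, Tpi1 and Gapdh were not called between the combinations at D7. When the model was fitted to the 4 groups alone, 9 of the 15 were called, without Aldoa, Tpi1, Gapdh, Eno3, Pkm and Ldha.

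From D7 to D12, 7 genes rose with Nanog-BiD (Pfkl, Pfkp, Aldoa, Aldoc, Gapdh, Pgk1 and Ldhb) and Pgam2 and Pdk3 fell (all genes 20%), with a median of 0.52 against 0.08. After quantile normalization 6 were higher and 3 lower. This count depended on the replicates of D7, being 15 without Nanog-BiD replicate 1 and 3 without replicate 2. With Nanog-WT, Pfkl rose (1.22) and Pgam2 fell (-1.02), and no other gene was called (all genes 11.3%). Both calls were lost on leaving out a library. Pfkl was at 0.89 (adjusted p = 0.14) without Nanog-WT replicate 2 of D7 and 0.76 (adjusted p = 0.19) without Nanog-WT replicate 1 of D12. Pgam2 was at -0.96 (adjusted p = 0.0061) without Nanog-WT replicate 1 of D7 and -0.86 (adjusted p = 0.0099) without Nanog-WT replicate 2 of D12. The paths differed in this change for Hk1, Hk2, Pfkm, Pfkp, Aldoa, Aldoc and Ldhb, each more positive with Nanog-BiD (all genes 14.1%, 6.78% more positive), from 1.01 (SE 0.30, adjusted p = 0.02) for Pfkm to 1.80 (SE 0.48, adjusted p = 0.01) for Aldoc. Hk1 was called here with neither of its own changes called, 0.83 with Nanog-BiD and -0.71 with Nanog-WT. Of these 7, only Hk2, Pfkp and Ldhb were called whichever library was left out. With no fold limit, 21 of the 36 passed for Nanog-BiD over D0 to D7 (all genes 43.8%) and 20 over D7 to D12 (43.6%), while Nanog-WT gave 19 (38.7%) and 13 (24.8%).

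The infected cells of D0 were compared with untreated MEF. Ldhb was higher at D0 (1.15, SE 0.20, adjusted p = 0.00024), and Hk2 (-1.63, SE 0.17, adjusted p = 5.6e-07) and Pfkl (-1.31, SE 0.29, adjusted p = 0.002) were lower (all genes 8.43%). The MEF libraries differed between themselves, with 10.2 and 15.2 FPKM of Hk2, 18.4 and 31.6 of Pfkl and 26.9 and 13.9 of Ldhb. With no fold limit 13 of the 36 passed (all genes 29.4%). Rescaled to TPM, 1 of the 36 was higher and 6 were lower. Without MEF replicate 1 the count of called genes was 7 and without replicate 2 it was 1, in which Ldhb gave 0.70 (adjusted p = 0.027) and Pfkl -0.94 (adjusted p = 0.078).

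In established iPSC no difference between the combinations was detected. None of the 36 genes was called between Nanog-BiD and Nanog-WT iPSC with limma, nor was any of the 12456 genes tested (0%), and 1 of the 36 and 201 of all had an unadjusted p under 0.05. The model held the label iPSC1 or iPSC2, which goes with passage, as covariate. Summed transcript FPKM of Slc2a1 was 96.8 to 171 (median 122) with Nanog-BiD and 108 to 222 (median 165) with Nanog-WT, a difference of -0.24 (SE 0.12, adjusted p = 1) with a 95% interval from -0.50 to 0.02. Slc16a3, the gene most different at D12, was 4.75 to 15.8 (median 5.21) and 4.10 to 33.4 (median 11.8), with an interval from -1.45 to 0.15 that includes a difference past the fold limit toward lower Slc16a3 with Nanog-BiD. For Pfkp the ranges were 23.3 to 42.8 (median 38.8) and 33.4 to 57.1 (median 42.7), and the interval ran from -0.60 to 0.16.

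Against MEF, the 12 iPSC samples had 9 of the 36 genes higher (Slc2a1, Hk2, Pfkm, Pfkp, Aldoc, Pgam1, Ldhb, Slc16a1 and Pdhb) and 3 lower (Eno2, Eno3 and Pfkfb3), where 40.7% of 13312 genes tested were called. With no fold limit 25 of the 36 passed (all genes 71.4%). This split depended on the scaling, with 6 higher and 8 lower after rescaling to TPM and 6 higher and 5 lower after quantile normalization, and 9 of the 12 calls shared in each case. Hk2 rose most (2.25, SE 0.18, adjusted p = 3e-07), from 8.76 and 13.4 FPKM in MEF to 41.8 to 63.3 (median 56.3) in Nanog-BiD and 46.9 to 88.0 (median 50.3) in Nanog-WT iPSC. It was followed by Slc16a1 (1.67, SE 0.11, adjusted p = 4.8e-08), Slc2a1 (1.66, SE 0.20, adjusted p = 8e-06) and Pfkp (1.62, SE 0.23, adjusted p = 4.2e-05). Slc16a3 was not called, at -1.08 (SE 0.53, adjusted p = 0.087), with MEF at 10.3 and 32.5 FPKM. Pdhb, not called between the combinations, was higher in iPSC (1.57, SE 0.14, adjusted p = 5.9e-07). Calls on Pfkm, Aldoc, Pgam1 and Ldhb were lost without 1 of the MEF samples, where Aldoc gave 1.004 (adjusted p = 0.26), Ldhb 0.74 (adjusted p = 0.14) and Pfkm 0.94 (adjusted p = 0.00015) without replicate 2, and Pgam1 0.73 (adjusted p = 0.0052) and Aldoc 1.74 (adjusted p = 0.06) without replicate 1. The mES sample, in the same table, had 262 FPKM of Slc2a1, 115 of Hk2 and 99.2 of Slc16a3, each above the highest iPSC sample. The 2 tables were quantified separately, and 30 of the 36 genes agreed within 2-fold in all 3 shared samples, the others being Pfkp, Aldoa, Gapdh, Eno3, Mpc1 and Pfkfb1, so no iPSC level is set against a time-course level.

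**Figure D5:**
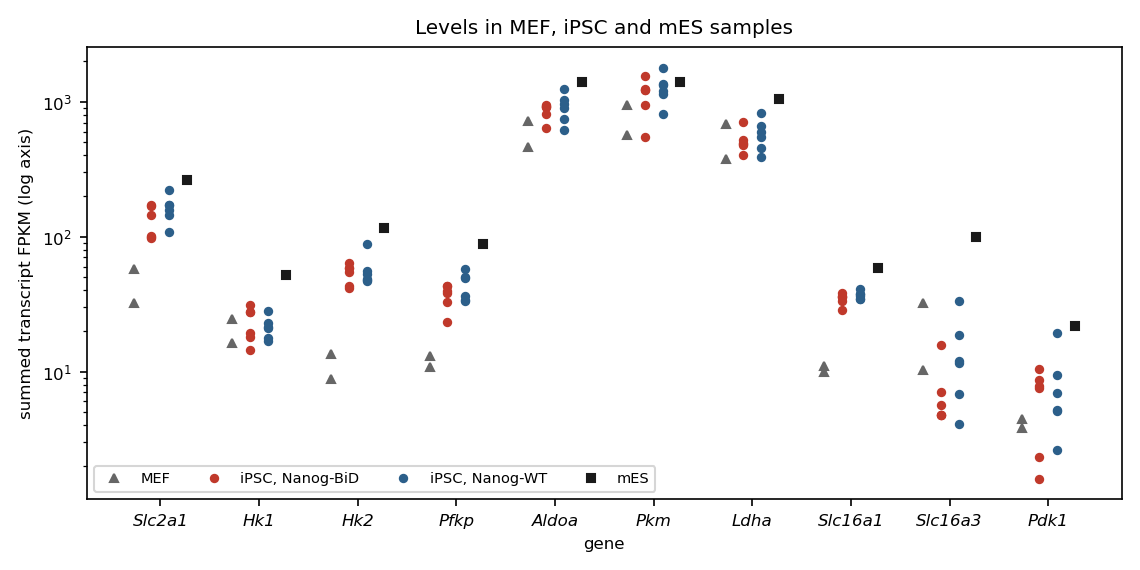
Summed transcript FPKM (y axis, log scale) of 10 genes (x axis) in MEF (grey triangles, 2), iPSC of Nanog-BiD (red, 6), iPSC of Nanog-WT (blue, 6) and mES (black square, 1), each point a sample. The red and blue points overlap for each gene, and Slc2a1, Hk2, Pfkp and Slc16a1 lie above both MEF samples in all 12 iPSC samples.

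Neighbouring routes of glucose and pyruvate metabolism were read from lists of genes. Of 22 tested companion genes (other transporters, isoforms and side reactions), 2 were higher and 2 lower with Nanog-BiD at D7, and 3 were higher and 1 lower at D12, where 10.4% and 23.4% of all genes tested were called. Slc2a3, which encodes the high-affinity glucose importer GLUT3, was at 154 and 162 FPKM at D7 and 278 and 353 at D12 with Nanog-BiD, against 4.33 and 5.37 at D7 and 10.8 and 20.2 at D12 with Nanog-WT. Its difference at D12 was 4.31 (SE 0.29, adjusted p = 5.4e-10), above that of any member, and mES had 1071 FPKM. Pcx, pyruvate carboxylase, was lower (-2.67, SE 0.19, adjusted p = 1.8e-09), while Pgm1 (1.27, SE 0.19, adjusted p = 1.9e-05) and Pdp2 (1.11, SE 0.21, adjusted p = 0.00025) were higher. Of 9 tested genes of the pentose phosphate pathway, Prps1 (2.06, SE 0.23, adjusted p = 3.6e-07) and Tkt (1.66, SE 0.22, adjusted p = 3.6e-06) were higher and Prps2 (-1.04, SE 0.26, adjusted p = 0.0022) lower at D12 (all genes 23.4%). Of 19 genes of the tricarboxylic acid cycle, none was called at D7 with limma (10 had an unadjusted p under 0.05). Suclg2 (1.37, SE 0.15, adjusted p = 3e-07) was the only one at D12, with a median of 0.51 over the 19, where 23.4% of all genes were called. At D10, 4 of the 19 were higher and none lower, with a median of 0.58 (all genes 27.8%). All 19 differences were positive at D10 and at D12. Companion genes at D10 gave 7 higher and 1 lower, and the pentose phosphate genes 2 higher and none lower.

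Of 18 tested genes of the HIF pathway and its hypoxia targets outside glycolysis, 4 were higher and none lower at D7, 10 higher and 1 lower at D10, and 6 higher and 1 lower at D12 (all genes 10.4%, 27.8% and 23.4%), with medians of 0.54, 1.17 and 0.80. Egln3, an oxygen-sensing hydroxylase, was at 28.9 and 32.2 FPKM at D12 with Nanog-BiD and 1.68 and 3.81 with Nanog-WT (3.14, SE 0.38, adjusted p = 1.2e-06). Bnip3, a mitochondrial autophagy gene, was at 138 and 139.9 FPKM with Nanog-BiD and 25.4 and 32.3 with Nanog-WT (2.24, SE 0.21, adjusted p = 6.2e-08). Ddit4 (1.57, SE 0.35, adjusted p = 0.001) and Ndrg1 (1.47, SE 0.28, adjusted p = 0.0002) followed. The gene lower at D10 and D12 was Epas1, which encodes a hypoxia-inducible factor subunit, at -1.24 (SE 0.30, adjusted p = 0.0017) on D12, named after its value was seen. In iPSC against MEF this list had 4 genes higher and 5 lower (all genes 40.7%), with a median of -0.06. Whether these genes and the glycolytic genes share a cause was not tested.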

How the data were processed

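RNA was sequenced from 46 samples, 31 of the time course, 12 iPSC, 2 MEF and 1 mES. According to the processing notes, the authors trimmed reads with Trim Galore 0.6.4, aligned them to mm10 with HISAT2 2.2.1 and quantified them with StringTie 2.2.1, keeping replicates apart. The deposited values are FPKM, in a gene table (time course, MEF and mES) and a transcript table (iPSC, MEF and mES). Kit names differ between the labels and the methods, and neither strand nor annotation is given in the sources used here. The authors' GFOLD test needs reads and was not used.

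FPKM were analysed as log2(FPKM + 1). Genes that reached 1 FPKM in 2 or more libraries were tested with limma 3.58.1 in R 4.3.3 (trended eBayes, two-sided, Benjamini-Hochberg over all genes tested), with a mean for each of 16 groups of combination and day, which share the estimate of the spread. MEF were added for the D0 comparison. For the iPSC, transcripts were summed by symbol (35976 symbols) and the label iPSC1 or iPSC2 was a covariate. A call needs an adjusted p below 0.05 together with a log2 difference no smaller than 1. D8 and mES were described without a test. In simulated data, 200 genes were given a log2 change of 2. The D7 comparison recovered 196 (98.0%) of them among 16842 genes with 4 others called. The difference between paths from D0 to D7 recovered 182 (91.0%) with 12 others, and the iPSC comparison recovered 196 (98.0%) among 12456 with 3 others. Only genes of medium to high level were changed, and the noise was independent between libraries. Recovery of low genes or of smaller changes was therefore not examined.

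Low FPKM values are multiples of the value of a read, which gave relative depth. In 26 simulated libraries the largest error of this estimate was 0.858%. The depth of the iPSC table is unknown.

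The 36 genes and the lists beside them were chosen with earlier results of these data known. Genes called between the combinations at any day, or in a difference between paths, were named, the 12 with the largest differences at D7 or D12 with every library, the other members by step, and at most 4 called genes of each list beside them. Sequences came from RefSeq tables, and copies and overlaps from the mm10 annotation. Alternatives were a pseudocount of 0.1, no filter, TPM in place of FPKM, quantile normalization, dropping the fold limit and fitting only the groups compared. Others were the replicate number as a block and leaving out each library of the compared groups. For iPSC against MEF only 3 samples were left out in turn. Figures were drawn with matplotlib 3.10.9 in Python 3.11.15.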

Additional observations from a re-analysis of the deposited data

Results flagged for a closer look

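Among the 72 groups of 6 iPSC samples (36 genes, 2 combinations), 3 held a sample whose gap to its nearest neighbour exceeded 0.625 of the range, where chance flags about 1 in 20. Hk2 was 88.0 FPKM in Nanog-WT iPSC2 sample 5 and 46.9 to 55.7 in the others (gap 0.785 of the range). Slc16a3 was 15.8 FPKM in Nanog-BiD iPSC1 sample 4 and 4.75 to 7.04 in the others (0.793). Dlat was 21.9 FPKM in Nanog-BiD iPSC2 sample 3 and 26.3 to 28.1 in the others (0.708).

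The change from D0 to D7 differed between the combinations for 15 genes in the limma interaction, by a log2 difference, Nanog-BiD minus Nanog-WT, of 2.77 for Slc2a1, 2.54 for Pfkl, 1.27 for Pfkp, 1.34 for Aldoa, 1.54 for Tpi1, 1.52 for Gapdh, 1.59 for Pgk1, 1.45 for Pgam1, 2.18 for Eno1, 2.23 for Eno3, 1.61 for Pkm, 1.01 for Ldha, 4.42 for Slc16a3, 1.24 for Pdk1 and 1.49 for Pdk4. The change from D7 to D12 differed for 7 genes, by 1.54 for Hk1, 1.76 for Hk2, 1.01 for Pfkm, 1.62 for Pfkp, 1.47 for Aldoa, 1.80 for Aldoc and 1.75 for Ldhb.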

How the results depend on the processing

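The direction of all 129 called pairs of gene and comparison was kept in each of their 1471 values under the alternatives. Dropping the fold limit, no filter, the replicate block and fitting the compared groups alone leave the log2 difference itself unchanged. In those settings the direction could not turn, and only the call could be lost. The number of the 36 genes called moved by over 1.5 times in these cases. With a pseudocount of 0.1 it was 6 at D5, and with rescaling to TPM it was 7 for D0 against MEF. Without the fold limit it was 1 at D1, 6 at D3, 11 at D5, 21 for Nanog-BiD from D0 to D7 and 20 from D7 to D12, 19 for Nanog-WT from D0 to D7 and 13 from D7 to D12, 13 for D0 against MEF and 25 for iPSC against MEF. Fitted to the compared groups alone, the difference between paths from D0 to D7 gave 9. Leaving out each library in turn gave 0 to 3 at D0, 0 to 0 at D1, 0 to 1 at D3, 2 to 5 at D5, 10 to 14 at D7, 18 to 20 at D10 and 21 to 23 at D12. The paths from D0 to D7 gave 12 to 17 with Nanog-BiD and 10 to 14 with Nanog-WT, and from D7 to D12 3 to 15 and 1 to 2. The differences between paths gave 12 to 16 and 3 to 8, D0 against MEF 1 to 7, iPSC of the combinations 0 to 0 and iPSC against MEF 12 to 13. Leaving out 1 library lost 59 of the values of called pairs, over 21 genes, quantile normalization 14, the groups alone 9, TPM 5 and no filter 3. Quantile normalization moved the median of all genes from 0.24 to -0.01 for Nanog-BiD from D0 to D7, from 0.12 to -0.05 for Nanog-WT from D0 to D7 and from 0.17 to 0.07 at D12, and the median of the 36 genes to 0.41, 0.04 and 1.08. TPM moved the median of all genes to 0.24 for Nanog-WT from D0 to D7 and from 0.22 to 0.03 for iPSC against MEF. In the fit with a replicate block, the number called stayed at 13 at D7 and 21 at D12. Same-numbered replicates deviated together at r from -0.065 to 0.39 over 7 days across genes, so the numbers were not taken to pair samples. Depth limits the lowest genes most, such as Pfkfb1, Pfkfb4 and Pdk4.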
